A study of Homo sapiens with 6 samples.

Results

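The histone genes of NCI-N87 cells were taken from a deposited expression table of 58735 genes as all protein-coding genes whose symbol starts with HIST1H to HIST4H, H1F, H2AF, H2BF or H3F, which gave 91 genes. Of these, 71 are clustered genes, whose symbols carry the name of a histone cluster (HIST1 to HIST4), and 20 are replacement genes, which lie outside the clusters. The 71 clustered genes comprised 6 genes for H1, 17 for H2A, 18 for H2B, 15 for H3 and 15 for H4, and the 20 replacement genes comprised 4 for H1, 9 for H2A, 4 for H2B and 3 for H3. NCI-N87 is an established human gastric carcinoma line. RNA was sequenced from 3 libraries of cells with the empty lentiviral vector pSIH-H1-puro (shCtrl, labelled shNC) and 3 libraries of cells with the same vector carrying the shRNA shS1#1 against SCAMP1 (labelled shScamp1). Cells of both groups were infected in the presence of polybrene, selected as stable populations in 2 μg/ml puromycin and harvested near confluence, so the comparison holds lentivirus and selection constant. A single shRNA sequence was used in these libraries, and the control carried none. Effects of carrying an shRNA, or of this sequence on other genes, therefore cannot be told apart from those of SCAMP1 loss. The replicates are labelled as biological, and whether they came from separate infections is not stated, so p-values measure the spread between these samples.

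Histones are the proteins around which DNA is wrapped. H2A, H2B, H3 and H4 form the core particle of the nucleosome, and the linker histone H1 binds the DNA between particles. Most copies of the clustered genes are replication dependent: they are transcribed in S phase, when new DNA has to be packed, and their mRNA classically ends in a short stem-loop in place of a poly(A) tail, although several of them can also give polyadenylated transcripts. The replacement genes lie outside the clusters, typically give polyadenylated mRNA, in part have introns, and supply variants such as H2A.Z and H3.3 throughout the cell cycle.

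Expression was given as FPKM, the fragments on a gene per kilobase of its model, scaled to the depth of the library, which is a level per length. SCAMP1, the target of the shRNA and a membrane protein of recycling vesicles, was at 12.6, 12.1 and 11.5 FPKM in shCtrl and at 1.70, 1.37 and 1.99 FPKM in shS1#1 libraries, a log2 fold change of -2.78 (limma, adjusted p = 0.000248). The libraries held between 14311769 and 15988700 reads on genes. Replicate 2 of shS1#1 stood apart from the rest: 9.21% of its reads were mitochondrial, against 6.09% to 6.78% in the other 5, and its mean correlation with its own group over genes was 0.929, against 0.940 to 0.957. Several results are therefore also given without it. The epithelial markers KRT8, KRT18, KRT19, ERBB2, EPCAM and CDH1 were present in every library, whereas CDX1 and TFF1 were listed at 0. Of the 9 gastric carcinoma markers, 7 were tested and 5 were higher in shS1#1 (KRT8, KRT18, KRT19, CDH1 and CEACAM5, of which KRT19 and CDH1 lost the call when some single libraries were left out, with highest adjusted p of 0.0592 and 0.122). Of all genes tested, 8.82% were called higher. The summed level of the 9 markers was 5429.5 to 5711 FPKM in shCtrl and 9071 to 10024 FPKM in shS1#1. Of the other markers, no fibroblast, leukocyte or endothelial gene exceeded 0.773 FPKM in any library, with the fibroblast markers COL1A2, LUM and DCN at 0. The summed endothelial markers were at 0.139 to 0.235 FPKM in shCtrl and at 0.381 to 0.612 FPKM in shS1#1. The part of these marker levels in the histone results was not tested.

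Clustered histone genes were higher in SCAMP1-depleted cells, and no tested replacement gene was called. Of 37 clustered genes that averaged 0.5 FPKM or more over the libraries, 22 were higher in shS1#1 at an adjusted p under 0.05 and 0 were lower. All 22 also had a log2 fold change above 1. Among all 15556 genes tested, 8.82% were called higher and 5.17% lower, 2.42% were called higher with a log2 fold change above 1, and 0.746% were called lower with a log2 fold change under -1. The median log2 fold change of the 37 clustered genes was 1.37, with a range from -0.80 to 2.49, against -0.02 over all genes tested. In 25 of the 37, the lowest shS1#1 library lay above the highest shCtrl library, a pattern held by 20.4% of all genes tested. No clustered gene was lower at an unadjusted p under 0.05, by limma or by voom on recovered reads, against 14.7% of all genes tested by limma and 16.0% by voom, and voom called 20 of the 37 higher (10.4% of all genes). Without replicate 2 of shS1#1, 26 of the 37 were called higher and 0 lower, and the shares over all genes in that fit were 14.7% higher and 13.2% lower. From these bulk libraries alone, more cells in the phase that makes histone mRNA and more histone mRNA per cell cannot be told apart. By EdU incorporation, the paper reports a lower share of replicating NCI-N87 cells after SCAMP1 knockdown. The part of that difference in the histone levels was not tested.

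The 37 clustered genes had passed the filter out of 71. The filter was on the mean over all 6 libraries, and 6 of the 37 reached 0.5 FPKM in shS1#1 only (HIST2H2AA3, HIST1H2BO, HIST1H2BM, HIST1H3G, HIST1H4E and HIST1H4D), of which the first 3 were among the 22 called, while HIST1H2AJ reached it in shCtrl only. A gene that passed through 1 group had to differ in that direction, and of the 30 genes that reached 0.5 FPKM in both groups, 19 were higher and 0 lower. A further 25 were detected below it, with means from 0.0260 to 0.457 FPKM, and 9 were at 0 in all 6 libraries. Of these 9, 4 have more than 90% of their exon bases inside another annotated gene, namely HIST1H2AD and HIST1H3D under AL031777.3, HIST1H2AK inside HIST1H2BN, and HIST2H3PS2. The part of this overlap in the zeros was not tested. Of the 20 replacement genes, 9 passed the filter, 6 were detected below it and 5 were at 0.

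**Figure D1:**
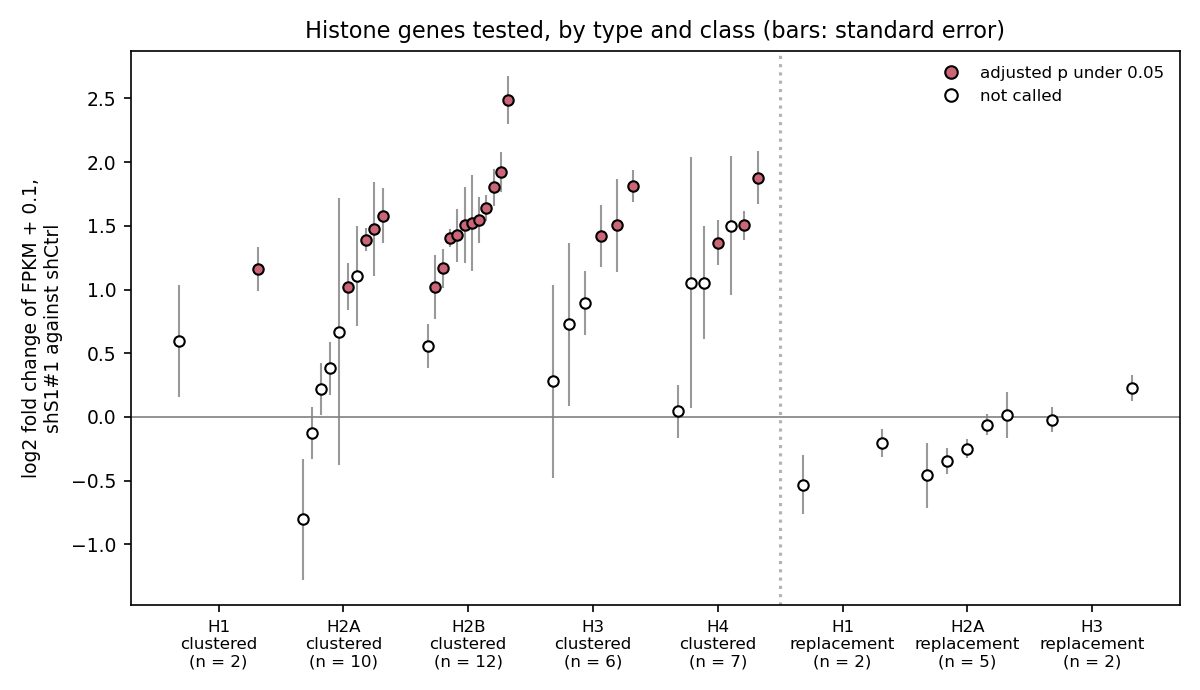
Each point is the log2 fold change of FPKM + 0.1 of 1 histone gene tested, shS1#1 against shCtrl, with its standard error, in columns by histone type and class. Filled points have an adjusted p under 0.05. All 22 filled points are clustered genes above 1, and 11 of the 12 clustered H2B genes are filled.

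The linker histones of the clusters were carried by a single abundant gene. HIST1H1C, which encodes the linker H1.2, was at 20.8, 21.0 and 20.4 FPKM in shCtrl and at 56.5, 35.0 and 50.9 FPKM in shS1#1. Every shS1#1 library was above every shCtrl library, and the lowest was replicate 2. The mean rose from 20.7 ± 0.340 to 47.5 ± 11.1 FPKM (SD, n = 3), a log2 fold change of 1.16 ± 0.17 (SE, adjusted p = 0.00928 by limma across all genes). Without replicate 3 of shCtrl the call was lost (adjusted p = 0.0506), although the log2 fold change of 1.15 was about as large. HIST1H1E was the other tested clustered H1 gene, with 0.683 ± 0.396 and 1.02 ± 0.339 FPKM, and it was not called (adjusted p = 0.404).

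H2B was the type with most calls. Of 12 clustered H2B genes tested, 11 were higher, and the median log2 fold change was 1.51. HIST1H2BM and HIST1H2BO passed the filter only through shS1#1, with 1 to 2 and 2 to 4 reads in shCtrl libraries, and of the other 10 genes 9 were higher. HIST1H2BK was the most abundant clustered histone gene of any type, with 51.1, 51.2 and 48.4 FPKM in shCtrl and 142, 127 and 131 FPKM in shS1#1. These groups were far apart, with a log2 fold change of 1.41 ± 0.07 and an adjusted p of 0.000261 by limma. Between 285 and 790 reads lay on this gene in each library, although 28.4% of the 100-base windows of its transcript also occur in transcripts of other genes, so part of its reads could be placed ambiguously. HIST1H2BC had the largest log2 fold change among clustered genes tested. It was at 1.06, 1.295 and 1.86 FPKM in shCtrl and at 8.05, 8.32 and 8.03 FPKM in shS1#1, a ratio of 5.79 between the means (log2 fold change 2.49 ± 0.19, adjusted p = 0.000943). No 100-base window of its transcripts was shared with another gene, and 14 to 98 reads supported each value. HIST2H2BE, from the smaller HIST2 cluster on chromosome 1, was at 4.05, 5.39 and 4.25 FPKM against 17.7, 13.7 and 16.9 FPKM. It too was separated in every library, with a log2 fold change of 1.80 ± 0.15 (adjusted p = 0.00110). The smallest log2 fold change of the type was that of HIST3H2BB, at 0.960, 1.22 and 1.18 FPKM in shCtrl and 2.03, 1.45 and 1.62 FPKM in shS1#1. Its groups did not overlap, yet it was not called (0.56 ± 0.17, adjusted p = 0.0815; 0.0392 without replicate 2 of shS1#1). The remaining H2B genes called, chosen for naming after their values were seen, were HIST1H2BD, HIST1H2BF, HIST1H2BG, HIST1H2BH, HIST1H2BJ, HIST1H2BM, HIST1H2BO and HIST2H2BF, with log2 fold changes from 1.02 (HIST1H2BH) to 1.92 (HIST1H2BF). When 1 library at a time was left out, HIST1H2BH and HIST1H2BO kept their call in 1 of 6 fits each and HIST1H2BM in 0 (highest adjusted p of 0.139, 0.0812 and 0.122).

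**Figure D2:**
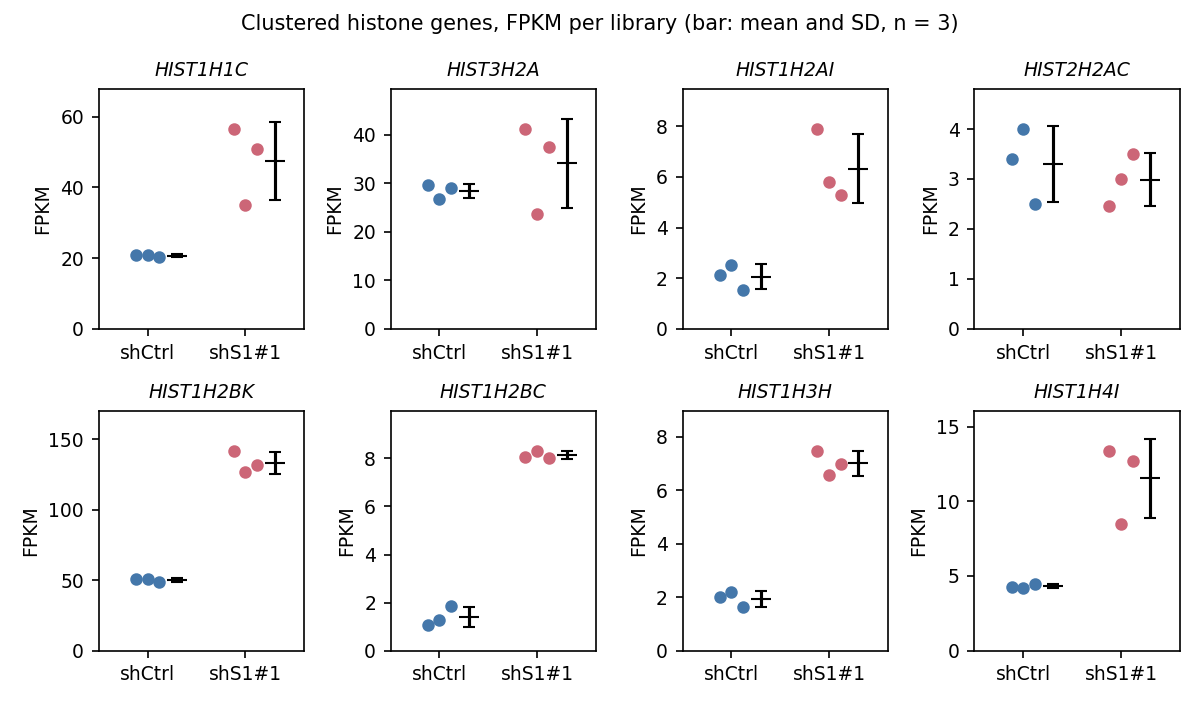
FPKM of 8 clustered histone genes in each of the 3 shCtrl and 3 shS1#1 libraries, with the mean and SD beside the points. HIST1H2BK, HIST1H2BC, HIST1H2AI, HIST1H3H, HIST1H4I and HIST1H1C are separated between groups, while HIST3H2A and HIST2H2AC overlap.

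H2A genes were more divided. Of 10 clustered H2A genes tested, 4 were higher (HIST1H2AC, HIST1H2AG, HIST1H2AI and HIST2H2AA3), 0 were lower and 6 were not called, with a median log2 fold change of 0.85. At an unadjusted p under 0.05, 5 were higher and 0 lower. HIST1H2AG and HIST2H2AA3 kept their call in 2 of the 6 fits that left out 1 library each (highest adjusted p of 0.0799 and 0.145). All windows of HIST2H2AA3 are shared with other genes, and it had 2 to 6 reads in the shCtrl libraries and passed the filter only through shS1#1. Of the 8 H2A genes that reached 0.5 FPKM in both groups, 3 were higher. The most abundant clustered H2A gene, HIST3H2A, was at 29.7, 26.9 and 29.003 FPKM in shCtrl and at 41.2, 23.8 and 37.5 FPKM in shS1#1. Replicate 2 of shS1#1 lay below all controls and the other shS1#1 libraries above them. The log2 fold change was 0.22 ± 0.20 (adjusted p = 0.503) with all libraries and 0.46 (adjusted p = 0.00525) without that replicate. HIST1H2AI had the largest log2 fold change of the type, from 2.13, 2.51 and 1.54 FPKM to 7.89, 5.81 and 5.30 FPKM (1.58 ± 0.22, adjusted p = 0.00687), but 57.7% of its windows are shared with other genes. HIST2H2AC was at 3.40, 4.001 and 2.49 FPKM in shCtrl and at 2.46, 3.00 and 3.51 FPKM in shS1#1. The groups overlapped fully, with a log2 fold change of -0.13 ± 0.20 (adjusted p = 0.712). The H2A genes not called further included HIST1H2AE, HIST2H2AA4, HIST1H2AL and HIST1H2AJ, of which the last, with a mean of 0.586 FPKM, had the lowest log2 fold change of the clustered genes (-0.80 ± 0.48, adjusted p = 0.302). HIST2H2AA4 was called higher without replicate 2 of shS1#1 (1.38, adjusted p = 0.0481).

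Among H3 and H4, 3 of 6 and 3 of 7 tested clustered genes were higher and 0 were lower (4 of 6 and 4 of 7 higher, 0 lower, at an unadjusted p). HIST1H3H, the H3 gene with both the highest level and the largest log2 fold change, was at 1.99, 2.18 and 1.62 FPKM in shCtrl and at 7.47, 6.55 and 6.96 FPKM in shS1#1. That was a log2 fold change of 1.81 ± 0.12 (adjusted p = 0.000685), with no overlap between groups. HIST2H3D (1.503) and HIST1H3E (1.42) were the other H3 genes called, and HIST1H3C, HIST1H3G and HIST3H3 were not called. With 1 library left out, HIST2H3D kept its call in 2 of 6 fits (adjusted p up to 0.149) and HIST1H3E in 3 of 6 (up to 0.0636). HIST1H3G was called higher without replicate 2 of shS1#1 (0.99, adjusted p = 0.0479) and by voom (adjusted p = 0.0294), whereas HIST3H3, with 1 to 12 reads per library, turned from 0.28 to -0.43 without that replicate and was not called in either fit. HIST1H4I, the most abundant H4 gene, was at 4.29, 4.22 and 4.45 FPKM in shCtrl and at 13.4, 8.47 and 12.7 FPKM in shS1#1. HIST1H4H rose from 0.991, 1.25 and 0.988 FPKM to 4.84, 3.07 and 4.96 FPKM. In both genes all shS1#1 libraries exceeded all shCtrl libraries, and the lowest of them was replicate 2. Their log2 fold changes were 1.37 ± 0.18 for HIST1H4I (adjusted p = 0.00540) and 1.88 ± 0.21 for HIST1H4H (adjusted p = 0.00310). HIST4H4, the only member of its cluster, went from 1.17 ± 0.114 to 3.49 ± 0.270 FPKM (1.504 ± 0.11, adjusted p = 0.000927). HIST1H4D, HIST1H4E, HIST1H4J and HIST1H4K were not called, with log2 fold changes from 0.05 to 1.502 and 4 to 5 reads per library on average for HIST1H4J and HIST1H4K. HIST1H4E was called higher without replicate 2 of shS1#1 (1.98, adjusted p = 0.0259), and in that fit HIST1H4K moved from 1.055 to 0.60 and was not called (adjusted p = 0.2298).

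The calls were spread over the clusters. In HIST1, which spans chr6:25726132-27893843 (GRCh38), 17 of 27 tested genes were higher. Both of its blocks took part, with 9 of 15 genes between 25.7 and 26.3 Mb and 8 of 12 between 27.1 and 27.9 Mb. In HIST2 on chromosome 1, 4 of 6 were higher. These counts include HIST1H2BO and HIST1H2BM of HIST1 and HIST2H2AA3 of HIST2, which passed the filter only through shS1#1. In HIST3, also on chromosome 1, 0 of 3 were called in either direction, with 1 higher and 0 lower at an unadjusted p, 0 called by voom, and 2 called higher (HIST3H2A and HIST3H2BB) without replicate 2 of shS1#1. The 20 protein-coding genes that lie among the HIST1 genes and carry no histone name served as a comparison of position. They include AL031777.3, whose model overlaps HIST1H2AD and HIST1H3D and is thus not separate from the histone genes. It was below the filter and not tested, at 0.180 ± 0.0853 FPKM in shCtrl and 0.637 ± 0.147 FPKM in shS1#1, without overlap. Of the 12 tested, 1 was higher (TRIM38, log2 fold change 0.70) and 1 lower (HMGN4, -0.50), against 8.82% higher and 5.17% lower of all genes tested, and the median was 0.07. These 2 names were chosen after their values were seen, and each kept its call in 2 of the 6 fits without 1 library (highest adjusted p of 0.0833 and 0.110).

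The clustered genes were also counted by shared sequence and by depth, and the differences between these groups were not tested. Of the 27 tested genes with at most 5% of windows shared with other genes, 17 were higher, and of the 10 with more, 5 were higher. Of the 22 with a mean of at least 20 reads per library, 18 were higher, and of the 15 with fewer, 4 were higher. HIST2H2AA3, HIST1H2BO and HIST1H2BM are among these 4 and are also counted as higher in the split by shared windows. They passed the filter only through shS1#1, which favours a call in that direction.

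Many H2A and H2B genes of the clusters lie head to head and share the stretch between their starts. In the annotation 11 such pairs were found, with 219 to 331 bases between the gene models, and in 6 pairs both genes were tested. Both genes were higher in 2 pairs (HIST1H2BC with HIST1H2AC and HIST1H2BJ with HIST1H2AG). In 3 pairs the H2B gene was higher and the H2A gene was not called (HIST2H2BE with HIST2H2AC, HIST1H2BG with HIST1H2AE, HIST1H2BM with HIST1H2AJ), and in the HIST3 pair neither was called. The ratio within a pair was compared as the log2 ratio of H2B to H2A, each as FPKM + 0.1, in each library. Its difference between groups is the gap between the log2 fold changes of the pair. For HIST2H2BE over HIST2H2AC it was 0.25, 0.42 and 0.75 in shCtrl and 2.80, 2.16 and 2.24 in shS1#1. The groups did not overlap, and the difference of 1.93 had an exact two-sided permutation p of 0.1, the smallest that 3 against 3 libraries allow. The ratio rose without overlap between groups in 4 of the 6 pairs (each exact permutation p = 0.1, 0.15 adjusted over the 6 pairs), by 1.09 for HIST1H2BC over HIST1H2AC, 1.17 for HIST1H2BG over HIST1H2AE and 2.33 for HIST1H2BM over HIST1H2AJ. The last of these rests on 1 to 5 and 1 to 6 reads per library, on an H2B gene that passed the filter only through shS1#1 and an H2A gene that passed it only through shCtrl, so the filter favours that difference, and 80.9% of the windows of HIST1H2AJ are shared with other genes. Without that pair, the rise is that of the pairs of HIST2H2BE, HIST1H2BC and HIST1H2BG, whose genes all reached 0.5 FPKM in both groups. The annotated 3′ UTR, the part after the coding sequence, differs within these pairs. It has 1801 bases in HIST2H2BE and none in HIST2H2AC, and 1104 in HIST1H2BG and 116 in HIST1H2AE. In the other pair it is longer in HIST1H2AC (1187 bases) than in HIST1H2BC (272). The part of these models in the ratios was not tested. For HIST3H2BB over HIST3H2A the difference was 0.33 (exact permutation p = 0.2) and for HIST1H2BJ over HIST1H2AG it was 0.40 (exact permutation p = 0.3).

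**Figure D3:**
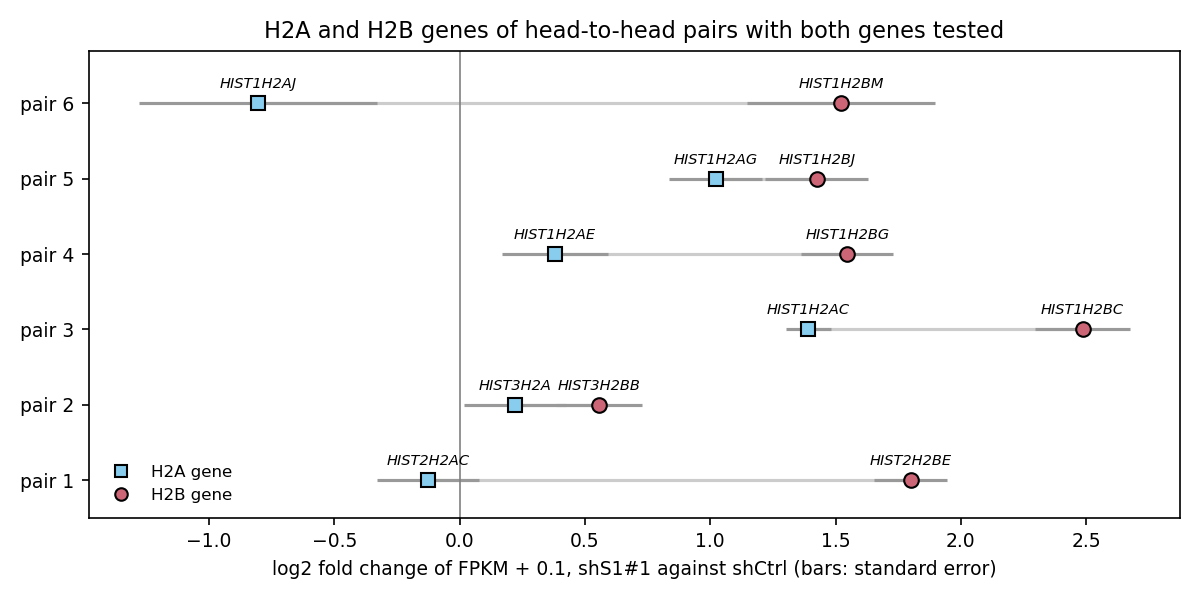
Log2 fold changes (FPKM + 0.1, shS1#1 against shCtrl, bars for the standard error) of the H2A gene (square) and the H2B gene (circle) of the 6 head-to-head pairs with both genes tested, 1 pair per row. In every row the H2B gene lies to the right of its H2A partner, by the most for HIST1H2BM and HIST2H2BE. HIST1H2BM passed the filter only through shS1#1 and its partner HIST1H2AJ only through shCtrl, so the filter favours that gap. The gene models of HIST2H2BE and HIST1H2BG are longer than those of their partners.

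Promoter sequences were read from RefSeq (GRCh38.p14) as the 250 bases before and 50 after each gene start (the first listed where a gene has several), and 82 of the 91 genes had an entry, 66 of them clustered. They were searched on both strands for TATAAA (the TATA box), CCAAT and ATTTGCAT (the octamer bound by Oct-1, a known element of H2B promoters). The 4 below are shown because they belong to the H2B genes with the highest level and the largest change, to the HIST2 H2B gene whose partner was not called, and to the most abundant H4 gene. Capitals mark the motif matches in either orientation, and overlapping matches run together.
HIST1H2BK (H2BC12, chr6:27146809-27147108, minus strand): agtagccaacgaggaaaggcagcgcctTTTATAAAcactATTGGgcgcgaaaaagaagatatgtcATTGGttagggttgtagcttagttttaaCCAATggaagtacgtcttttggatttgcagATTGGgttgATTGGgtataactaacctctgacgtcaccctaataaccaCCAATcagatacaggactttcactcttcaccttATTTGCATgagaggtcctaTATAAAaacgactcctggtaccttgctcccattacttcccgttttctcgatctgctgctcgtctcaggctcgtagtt
HIST1H2BC (H2BC4, chr6:26123877-26124176, minus strand): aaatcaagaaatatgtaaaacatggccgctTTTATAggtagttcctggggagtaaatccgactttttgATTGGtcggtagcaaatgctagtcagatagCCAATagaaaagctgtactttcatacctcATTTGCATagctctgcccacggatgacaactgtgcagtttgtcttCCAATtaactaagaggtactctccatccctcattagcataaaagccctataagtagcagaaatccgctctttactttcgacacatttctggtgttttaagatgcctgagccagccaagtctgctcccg
HIST2H2BE (H2BC21, chr1:149886633-149886932, minus strand): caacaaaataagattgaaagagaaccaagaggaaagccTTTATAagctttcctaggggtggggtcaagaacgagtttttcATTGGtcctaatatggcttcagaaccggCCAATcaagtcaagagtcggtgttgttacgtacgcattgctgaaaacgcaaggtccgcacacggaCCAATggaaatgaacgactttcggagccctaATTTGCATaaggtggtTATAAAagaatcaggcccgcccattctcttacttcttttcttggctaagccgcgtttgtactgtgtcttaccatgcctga
HIST1H4I (H4C9, chr6:27139032-27139331, plus strand): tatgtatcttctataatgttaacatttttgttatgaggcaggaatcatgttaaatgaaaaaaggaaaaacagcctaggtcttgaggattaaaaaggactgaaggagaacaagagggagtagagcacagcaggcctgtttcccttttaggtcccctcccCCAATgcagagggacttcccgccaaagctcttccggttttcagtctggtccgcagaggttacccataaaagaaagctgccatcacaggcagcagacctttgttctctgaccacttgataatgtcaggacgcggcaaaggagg
In HIST1H2BK and in HIST2H2BE the octamer begins 46 bases upstream of the start, followed by a TATAAA at 27 and at 30 bases. In HIST1H2BC the octamer lies farther out, at 123 bases, and the only TATAAA match is on the opposite strand. HIST1H4I holds 1 CCAAT, at 92 bases, and neither of the other motifs.

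The octamer was present in 14 of 18 clustered H2B promoters and 11 of 16 clustered H2A promoters, in 1 of 13 for H3, 0 of 6 for H1 and 0 of 13 for H4, against 1.77% of all 35116 RefSeq promoters of the same length. In the H2A promoters it lay on the opposite strand, except in HIST1H2AM. The promoter windows of head-to-head genes overlap, so the same match can be counted for both genes. The match of HIST1H2BC at 123 bases and that of HIST1H2AC at 130 bases are the same stretch. The H2A and H2B counts are therefore not independent. The H3 match was in HIST1H3D, at a start that is also the start listed for HIST1H2AD. TATAAA occurred in 44 of the 66 clustered promoters (66.7%, against 11.5% of all promoters) and in 4 of 16 replacement promoters. CCAAT occurred in 56 of 66 clustered promoters (84.8%, against 34.6%), including 3 of 13 for H4, and in 13 of 16 replacement promoters. By call, the octamer was present in 12 of the 22 clustered genes that were higher, in 4 of the 15 not called and in 10 of the 29 not tested. This split cannot be told apart from histone type, as 11 of the 12 tested H2B genes were higher and most H2B promoters hold the octamer.

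The annotated 3′ ends of the clustered genes differ. In GENCODE 29, 35 of the 71 models have no 3′ UTR, 11 have one under 200 bases and 25 have a longer one. Of the tested genes, 15 of 19 with the longer 3′ UTR were higher, with a median log2 fold change of 1.42. Of those with a short one, 2 of 7 were higher (median 0.60), and of those with none, 5 of 11 were higher (median 1.06). HIST2H2AA3 among the 2, and HIST1H2BO and HIST1H2BM among the 5, passed the filter only through shS1#1, which favours their call. The differences between these groups were not tested, and a longer model collects more reads at the same level. Whether the libraries were made from polyadenylated or from ribosome-depleted RNA is not given in the sources used here, which bears on how much of the stem-loop mRNA they could hold.

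A stem-loop of 16 bases, with 6 base pairs and a loop of 4 bases that begins with TTT, was found after the stop codon in the models of 31 clustered genes. G-T pairs were allowed, the stem had to begin with GG and end with CC, and the first match was taken. They are shown because this hairpin is the classical end of replication-dependent histone mRNA. The forms are given in DNA letters with the loop in capitals, each at the coordinates (GRCh38) of 1 gene that carries it.
HIST1H3H, plus strand, chr6:27810516-27810531: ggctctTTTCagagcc
HIST1H2BC, minus strand, chr6:26123472-26123487: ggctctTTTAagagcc
HIST1H4H, minus strand, chr6:26285131-26285146: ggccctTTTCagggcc
HIST1H4I, plus strand, chr6:27139654-27139669: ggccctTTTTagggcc
HIST1H2AG, plus strand, chr6:27133515-27133530: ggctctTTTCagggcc
H2AFX, minus strand, chr11:119094898-119094913: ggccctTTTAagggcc
The first form was found in 17 clustered genes, the second in 5, the third in 5, the fourth in 3 and the fifth in HIST1H2AG alone. All 8 hairpins of H4 genes had the stem ggccct, with a loop of TTTC or TTTT. The hairpins began 22 to 67 bases after the stop codon. The annotated model continued past the hairpin by 116 bases in HIST1H2BC and by 1655 bases in HIST1H4H, beyond the classical end of the mRNA. H2AFX was the only replacement gene with a match. Of the tested clustered genes, 15 of 23 with the hairpin in the model and 7 of 14 without it were higher, and genes whose model stops at the coding sequence cannot show one. HIST2H2AA3 among the 15, and HIST1H2BO and HIST1H2BM among the 7, passed the filter only through shS1#1.

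None of the 9 tested replacement genes was called in either direction. At an unadjusted p under 0.05, 0 were higher and 2 lower by limma, and 0 higher and 3 lower by voom, which also called none. Over all genes these shares were 16.1% higher and 14.7% lower by limma and 16.8% higher and 16.0% lower by voom. Their median log2 fold change was -0.21, with a range from -0.53 to 0.23. In 5 of the 9 (H1F0, H1FX, H2AFZ, H2AFX and H2AFV) every shS1#1 library lay below every shCtrl library, against 21.0% of all genes tested. Without replicate 2 of shS1#1, 2 were called lower (H2AFX and H2AFV), 1 was called higher (H3F3B), and the median was -0.09. That fit called 13.2% of all genes lower and 14.7% higher.

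Of the replacement linker histones, H1F0, which encodes the H1.0 of slowly dividing and differentiated cells, was at 112, 110 and 120 FPKM in shCtrl and at 108, 84.4 and 106 FPKM in shS1#1. H1FX was at 55.5, 59.4 and 66.2 FPKM and at 51.8, 28.4 and 49.1 FPKM. Both had their lowest value in replicate 2 of shS1#1, and neither was called (log2 fold changes of -0.21 and -0.53, adjusted p of 0.264 and 0.185 by limma). Without that library their log2 fold changes were -0.09 and -0.25, and neither was called (adjusted p of 0.195 and 0.0649).

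Of the H2A variants, H2AFZ, which encodes H2A.Z and was the most abundant histone gene of all, was at 176, 166 and 180 FPKM in shCtrl and at 165, 82.4 and 150 FPKM in shS1#1. Replicate 2 of shS1#1 held the lowest value by a wide margin, and the log2 fold change of -0.46 ± 0.26 was not called (adjusted p = 0.277). Without it the log2 fold change was -0.15 (adjusted p = 0.114). H2AFV, which encodes the closely related H2A.Z.2, was at 23.2, 23.2 and 24.4 FPKM against 20.1, 15.997 and 19.98 FPKM (-0.34 ± 0.10, adjusted p = 0.0772; -0.24 and 0.0101 without replicate 2 of shS1#1). H2AFX encodes H2A.X, the variant phosphorylated at DNA breaks, and was at 78.8, 81.8 and 81.2 FPKM against 72.0, 62.3 and 69.4 FPKM (-0.25 ± 0.08, adjusted p = 0.0804; -0.19 and 0.0143 without that replicate). The groups of these 2 genes were apart, by a change that was small beside that of the clustered genes. H2AFY, for macroH2A, at 18.6 ± 0.751 and 17.8 ± 1.58 FPKM, and H2AFJ, at 32.4 ± 1.64 and 33.5 ± 8.10 FPKM, overlapped between groups. Without replicate 2 of shS1#1 the log2 fold change moved from -0.06 to 0.02 for H2AFY and from 0.02 to 0.23 for H2AFJ (adjusted p of 0.825 and 0.0531).

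The 2 tested genes for H3.3, the variant placed at active genes outside replication, also did not pass the test. H3F3A was at 101.1, 101.8 and 100.6 FPKM in shCtrl and at 107.2, 86.96 and 106.5 FPKM in shS1#1, a log2 fold change of -0.02 with all libraries and 0.08 (adjusted p = 0.0939) without replicate 2 of shS1#1. H3F3B was at 90.3, 91.1 and 97.6 FPKM in shCtrl and at 117, 94.6 and 116 FPKM in shS1#1. Only replicate 2 of shS1#1 fell within the range of the controls for H3F3B, whose log2 fold change was 0.23 ± 0.10 (adjusted p = 0.192) with it and 0.33 (adjusted p = 0.00493) without it. The processed pseudogene H3F3AP4, with a mean of 42.3 FPKM, resembles H3F3A in sequence, and 10.3% of the windows of H3F3A are shared with other genes. H2AFY2, H2AFB2, H2AFB3, H1FNT, H3F3C and 1 of the 2 genes named H2BFS were below the filter, and H2AFB1, H1FOO, H2BFM, H2BFWT and the other H2BFS were at 0.

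**Figure D4:**
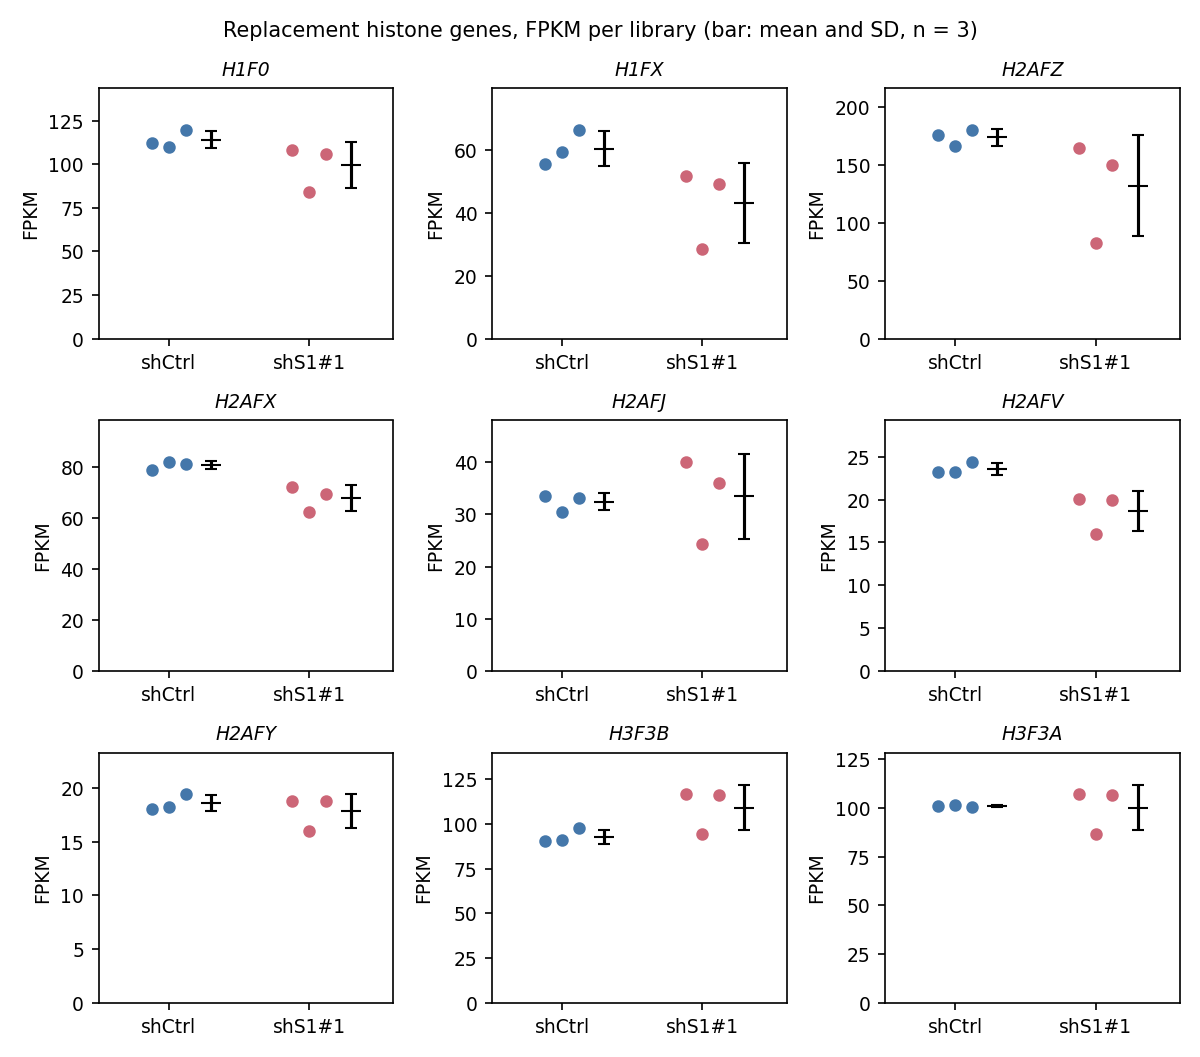
FPKM of the 9 tested replacement histone genes in each of the 3 shCtrl and 3 shS1#1 libraries, with the mean and SD beside the points. The lowest shS1#1 point of each gene is replicate 2, as for H2AFZ at 82.4 FPKM beside 165 and 150.

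Sums over genes depend less on how reads were divided between near-identical copies. The summed level of the 71 clustered genes was 159, 160 and 154 FPKM in shCtrl and 402, 315 and 373 FPKM in shS1#1. The mean rose from 157 ± 3.36 to 363 ± 44.0 FPKM, a ratio of 2.31, and every shS1#1 library was above every shCtrl library (exact two-sided permutation p = 0.1, the smallest possible). Without HIST1H2BK, which gave 31.9% of the sum in shCtrl and 37.0% in shS1#1, the ratio was 2.14. The summed level of the 20 replacement genes was 690, 683 and 723 FPKM in shCtrl and 700, 496 and 673 FPKM in shS1#1. These groups overlapped (ratio 0.892, exact permutation p = 0.4), and the ratio was 0.983 without replicate 2 of shS1#1. By type, the replacement sums were 0.817 times as high in shS1#1 for H1 and 0.820 times for H2A, without overlap between groups (exact permutation p = 0.1 each, 0.2 adjusted over 4 types), and 1.08 times for H3, with overlap (exact permutation p = 0.4). These ratios were 0.903, 0.925 and 1.15 without replicate 2 of shS1#1. All 91 genes together were at 856 ± 18.0 and 986 ± 154 FPKM (ratio 1.152, exact permutation p = 0.4). Counted as RPM, the reads scaled to all reads on genes with no correction for gene length, the ratio was 2.29 for clustered genes and 0.906 for replacement genes, and for all 91 genes it turned to 0.978 (2546 ± 50.05 and 2491 ± 427 RPM, exact permutation p = 1).

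By type, the sums of the clustered genes were 2.75 times as high in shS1#1 for H2B, 2.71 for H3, 2.62 for H4, 2.26 for H1 and 1.54 for H2A (exact permutation p = 0.1 for each of the 5 types, and 0.1 after adjustment over them). H2A had the smallest of these ratios, and HIST3H2A alone gave 28.5 of its 47.6 FPKM in shCtrl. Without that gene, chosen after its values were seen, the H2A sum went from 19.04 ± 1.95 to 39.0 ± 3.77 FPKM, a ratio of 2.05. In RPM, which has no correction for length, the ratio without that gene was 2.25, above that of clustered H1 (2.15), so the order of the types depends on HIST3H2A and on the scale. The share of H2A in the clustered sum was 31.1%, 29.7% and 29.9% in shCtrl and 20.6%, 18.5% and 21.0% in shS1#1, while the share of H2B was 45.1%, 46.0% and 45.8% and then 53.4%, 58.0% and 52.6%. With HIST3H2A left out of both sums, the share of H2A was 14.8% ± 1.07 in shCtrl and 11.9% ± 0.286 in shS1#1, again without overlap (exact permutation p = 0.1). With all genes, neither share overlapped between groups (exact permutation p = 0.1 each, 0.125 adjusted over 5 types), and the share of H1 did (13.97% ± 0.258 and 13.6% ± 1.504, exact permutation p = 1). The shares of H3 (4.37% ± 0.284 and 5.13% ± 0.110) and H4 (5.78% ± 0.256 and 6.55% ± 0.379) also rose without overlap (exact permutation p = 0.1 each, 0.125 adjusted).

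**Figure D5:**
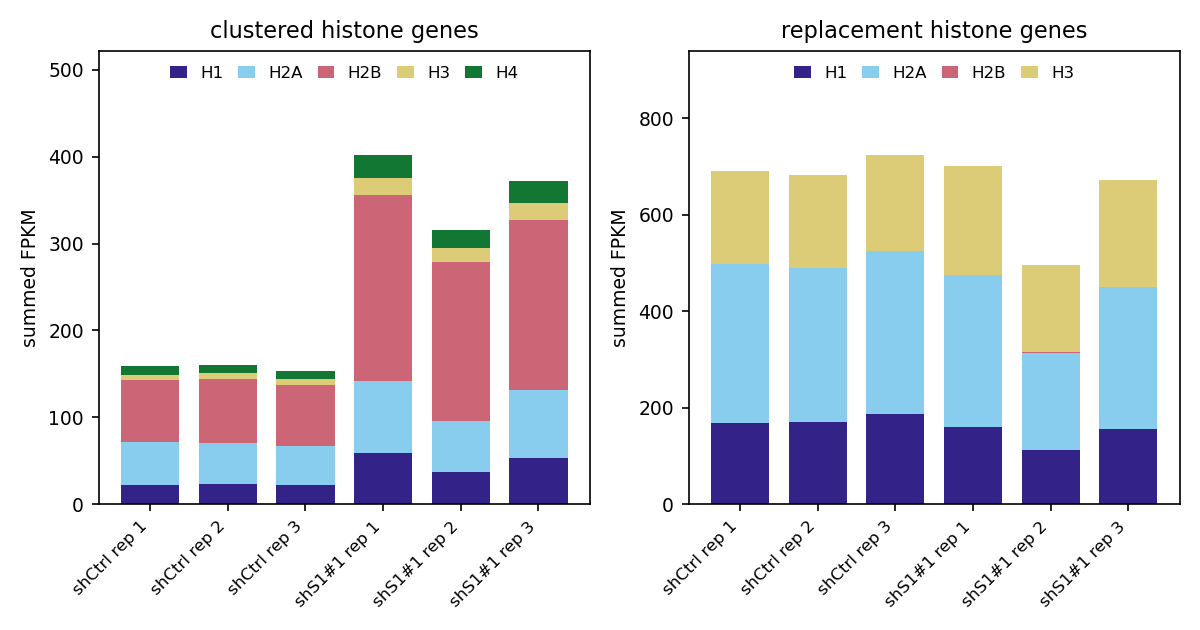
Summed FPKM of clustered genes (left) and replacement genes (right) in each library, stacked by histone type. The clustered sum lies at 154 to 160 in shCtrl and 315 to 402 in shS1#1, and the replacement sum is lowest in replicate 2 of shS1#1, at 496.

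The mix of histone mRNA in these libraries shifted accordingly. How much stem-loop mRNA the libraries could hold is not known. The sums and shares given here and above therefore describe the mRNA that was sequenced, and need not hold for the cells. Clustered genes gave 18.7%, 19.0% and 17.5% of the summed histone FPKM in shCtrl and 36.5%, 38.9% and 35.6% in shS1#1. This share was separated between groups, and here replicate 2 of shS1#1 was the highest library (exact permutation p = 0.1). The size of this share depends on the correction for length: of the summed histone reads, clustered genes gave 5.28%, 5.47% and 4.96% in shCtrl and 12.4%, 12.7% and 11.9% in shS1#1 (exact permutation p = 0.1). Within H1 the clustered share was 11.2% ± 0.735 and 25.8% ± 0.923, within H2A it was 12.6% ± 0.597 and 21.4% ± 0.941, and within H3 it was 3.42% ± 0.211 and 8.17% ± 0.267. H2B had nearly all of its level in clustered genes in both groups, at 99.9%.

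Genes that supply or carry histones were examined beside the histone genes. The list of histone mRNA supply named 26 genes of transcription, 3′ processing and decay of histone mRNA, and 25 of them were present in the data and tested. Of these 25, 1 was higher and 2 were lower, against 8.82% and 5.17% of all genes tested. ERI1, the exonuclease that trims the stem-loop, was at 2.33, 2.43 and 2.42 FPKM in shCtrl and 3.07, 4.06 and 3.76 FPKM in shS1#1 (log2 fold change 0.57, adjusted p = 0.0271). LSM11, of the U7 particle for histone 3′ processing, was lower (-0.43, adjusted p = 0.0302), as was CSTF2T (-0.27, adjusted p = 0.0455). These 3 were named after their values were seen. SLBP, the protein that binds the stem-loop, was at 28.1, 30.0 and 30.1 FPKM in shCtrl and at 27.0, 15.6 and 25.4 FPKM in shS1#1. Its groups did not overlap, but the log2 fold change of -0.41 ± 0.21 was not called (adjusted p = 0.229), and without replicate 2 of shS1#1 it was -0.17 (adjusted p = 0.0555). NPAT and CASP8AP2, of the body in which clustered histone genes are transcribed, were not called (-0.01, adjusted p = 0.985, and -0.14, adjusted p = 0.554). Without replicate 2 of shS1#1, 1 gene of the list was higher and 5 were lower, against 14.7% and 13.2% of all genes in that fit. Without any 1 of the shCtrl libraries, or without replicate 3 of shS1#1, 0 were called in either direction, and the highest adjusted p with 1 library left out was 0.108 for ERI1, 0.134 for LSM11 and 0.177 for CSTF2T.

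Of 28 histone chaperones tested, 1 was higher and 4 lower, and without replicate 2 of shS1#1 these counts were 1 and 12, in a fit that called 14.7% of all genes higher and 13.2% lower, against 8.82% and 5.17% with all libraries. The paralogous carriers of new H3 and H4 moved apart. ASF1A was at 11.4, 11.3 and 10.1 FPKM in shCtrl and at 14.96, 14.6 and 16.6 FPKM in shS1#1 (log2 fold change 0.49 ± 0.08, adjusted p = 0.0150). ASF1B, the form tied to proliferation, was at 24.5, 24.5 and 26.7 FPKM and at 16.2, 12.0 and 15.5 FPKM (-0.80 ± 0.12, adjusted p = 0.00997). Neither overlapped between groups, and they moved in opposite directions. With 1 library left out, ASF1A kept its call in 2 of 6 fits (adjusted p up to 0.0651), and ASF1B lost it without replicate 3 of shCtrl (adjusted p = 0.0543). CHAF1A, the large subunit of the replication-coupled assembly factor CAF-1, was lower (-0.30 ± 0.06, adjusted p = 0.0282, and up to 0.126 with 1 library left out), and CHAF1B of the same complex was not called (-0.16 ± 0.12, adjusted p = 0.398). NASP (-0.56, adjusted p = 0.00712) and NAP1L1 (-0.56, adjusted p = 0.00602), named after their values were seen, were the other chaperones called lower, and both kept the call whichever library was left out.

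Genes of S phase and replication were mostly not called, and those called were lower. Of 25 tested, 0 were called higher and 4 lower (MCM3, MCM6, MCM7 and TK1, named after their values were seen), with a median log2 fold change of -0.25. At an unadjusted p under 0.05, 1 was higher and 12 were lower, and voom called 0 higher and 8 lower. Over all genes, 16.1% were higher and 14.7% lower at an unadjusted p, and voom called 10.4% higher and 7.33% lower. Without replicate 2 of shS1#1, 2 were higher and 13 lower (14.7% and 13.2% of all genes in that fit), while without 1 of the other 5 libraries between 1 and 3 were lower and 0 higher. MCM3 and MCM6, subunits of the replicative helicase, had log2 fold changes of -0.47 (adjusted p = 0.00773) and -0.39 (adjusted p = 0.00944). MCM3 kept its call whichever library was left out, while the highest adjusted p in those fits was 0.0627 for MCM6, 0.132 for MCM7 and 0.166 for TK1. PCNA, the sliding clamp of DNA polymerase, was at 102.9, 100.6 and 106.7 FPKM in shCtrl and at 135, 97.7 and 135 FPKM in shS1#1, and was not called (0.23 ± 0.14, adjusted p = 0.309). Without replicate 2 of shS1#1, the 1 shS1#1 library below the controls, PCNA was called higher (0.38, adjusted p = 0.00170). The summed level of the list was 783 to 814 FPKM in shCtrl and 648 to 732 FPKM in shS1#1. Of 11 genes of the poly(A) machinery, 0 were called by limma or voom, with 1 higher and 3 lower at an unadjusted p by limma, and 1 was called lower without replicate 2 of shS1#1.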

How the data were processed

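Levels of mRNA were measured by RNA sequencing in 6 libraries of NCI-N87 cells, 3 shCtrl and 3 shS1#1. The authors deposited FPKM values per gene. The submitters' processing notes name HISAT2 2.0.5, featureCounts 1.5.0-p3, DESeq2 1.20.0 and hg38, and strand use and treatment of multiply mapped reads are not given in the sources used here. FPKM times length was a whole multiple of 1 step per library for 100% of values (tolerance 0.01), which gave the reads on each gene. The divisor behind the deposited FPKM was 0.957 to 1.04 times the reads on genes, so the values already carried a scaling between libraries. Gene coordinates equal those of GENCODE 29 for all 58735 genes.

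Genes averaging 0.5 FPKM or more were tested in R 4.3.3 with limma 3.58.1 (eBayes with trend) on log2(FPKM + 0.1), with Benjamini-Hochberg adjustment over 15556 genes. A fold change on this scale understates the change of low genes. The design allowed for raw counts, and as the values were FPKM the recovered reads entered only voom. Sums were compared by exact two-sided permutation tests (SciPy 1.17.1). The fit was tested on simulated data. Same-numbered libraries did not deviate together. The members and lists were chosen with earlier results of these data known. Named are the tested replacement genes, per type the clustered genes with the highest level and the largest and smallest log2 fold change (means of at least 1 FPKM), genes not called, SCAMP1 and 8 genes of the other lists (SLBP, NPAT, CASP8AP2, PCNA, ASF1A, ASF1B, CHAF1A, CHAF1B). The head-to-head pairs, stem-loop forms and marker genes were added later. Alternatives were other pseudocounts, filters, scalings, no trend, voom, the replicate number as a block and leaving out each library. After seeing the data, a filter of 10 reads and sums of reads scaled to depth without the gene length were added. Depth limits genes with few reads most.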

Additional observations from a re-analysis of the deposited data

How the results depend on the processing

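The count of 22 clustered genes called higher stayed between 15 and 26 under 17 alternatives, with 0 called lower in each, and 14 of the 22 were called in every alternative that gave a value: HIST1H2BK, HIST1H2BC, HIST1H2AC, HIST1H3H, HIST1H2BF, HIST2H2BF, HIST4H4, HIST2H2BE, HIST1H4H, HIST1H2BG, HIST1H4I, HIST1H2AI, HIST1H2BD and HIST1H2BJ. The other 8 lost their call in at least 1 fit. The median log2 fold change of clustered genes was 0.68 with a pseudocount of 1, which shrinks low genes by construction, and 1.02 without a filter, which adds genes near 0. Leaving out 1 library in turn, it ranged from 1.25 to 1.40, the count from 15 to 26, the median of the replacement genes from -0.27 to -0.09, and the ratio of summed FPKM from 2.19 to 2.46 for clustered and from 0.836 to 0.983 for replacement genes. Replacement genes called higher ranged from 0 to 1 and called lower from 0 to 2 in those fits. With quantile normalization 1 was higher (H3F3B, adjusted p = 0.0245) and 2 lower (H2AFX, 0.0335, and H2AFV, 0.0422), and the cause was not tested. Counts of the supply, chaperone and S phase lists moved by more than 1.5 times under several alternatives, with chaperones called lower from 2 to 12 and S phase genes from 1 to 13. With the replicate number as a block, 16 clustered genes were called higher, 0 lower, and 0 replacement genes in either direction. Correlations of the deviations of same-numbered libraries were -0.04, 0.03 and 0.07, so the numbers do not pair the samples. The median over all genes tested stayed between -0.09 and 0.01. Groups of 3 were not tested for outlying libraries. Genes with few reads, such as HIST1H4J and HIST1H2AJ, are limited by depth.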
